A study of Mus musculus with 10 samples.

Results

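The transcripts of 10 genes of the negative limb of the circadian clock and of its output factors were followed in mouse lung, namely *Dbp*, *Tef*, *Hlf*, *Nr1d1*, *Nr1d2*, *Per1*, *Per2*, *Per3*, *Ciart* and *Bhlhe41*. They are the 10 genes whose symbols were listed, out of 54532 genes in the deposited table, and all 10 were found and passed the filter on low values (a mean of at least 0.1 FPKM). FPKM is the number of sequenced fragments scaled to the length of the gene and to the depth of the library. The genes were chosen by the difference of their FPKM values between the same 2 groups of lungs, so that difference is described for them and not tested. The mice were wild-type C57BL/6J pups, of both sexes according to the methods, kept on 12 h of light and 12 h of darkness. In the increased pulmonary flow (IPF) group, the abdominal aorta and the inferior vena cava were joined by a needle puncture at postnatal day 7 (P7), so that blood was shunted from the left to the right circulation. The sham group had the same anesthesia and laparotomy at P7 without the puncture. Whole-lung mRNA was sequenced at P30 in 5 IPF and 5 sham lungs. The hour at which the lungs were taken is not given in the sources used here.

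The circadian clock is a feedback loop of transcription. BMAL1 (gene *Arntl*) with CLOCK or NPAS2 binds E-box elements and drives the PER, CRY, REV-ERB and DEC genes, whose proteins then repress the loop at different points, and it also drives the PAR bZIP genes (proline- and acidic-amino-acid-rich basic leucine zipper factors), which pass the rhythm on to output genes through D-box elements. In lung, as in most tissues studied, these transcripts rise and fall over the day, and *Arntl* and *Npas2*, which the REV-ERB proteins repress, run opposite to *Nr1d1* and *Dbp*.

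The promoter windows of these genes (250 bases before to 50 after a transcription start, RefSeq, GRCm38.p6) were searched on both strands for the letters that these factors read. A window was found for 9 of the 10 genes (all but *Per2*), 11 windows in all. The E-box CACGTG was in 5 of the 11 windows, belonging to *Per1*, *Tef*, *Ciart* and *Bhlhe41*, and in 7.15% of all 32851 windows. The D-box TTATGTAA was in the *Per3* window, in 2 copies, and in 0.938% of all windows. The related E-box CACGTT was in the *Nr1d1* window and in 4.68% of all windows, and the cyclic-AMP response element TGACGTCA in the *Hlf* window and in 1.79% of all windows. TTACGTAA, TAGGTCA and TGGGTCA (the last pair being cores of the element that REV-ERB and ROR proteins bind) were in no window of these genes, against 0.119%, 2.61% and 3.98% of all windows. None of the 11 matches overlapped another, and the windows of *Dbp* and *Nr1d2* held no match. The stretches around the matches are printed because they show where these letters stand next to the starts of the 7 genes that hold them, 5′ to 3′ on the strand of the gene, with the matched letters in capitals.
Ciart (chr3:95882250-95882361, minus strand): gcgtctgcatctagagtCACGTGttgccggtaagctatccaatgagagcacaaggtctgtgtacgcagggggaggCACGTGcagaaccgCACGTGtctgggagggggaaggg
Per3 (chr4:151044799-151044887, minus strand): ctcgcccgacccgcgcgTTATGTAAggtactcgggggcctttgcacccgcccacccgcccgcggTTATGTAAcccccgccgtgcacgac
Per1 (chr11:69098766-69098805, plus strand): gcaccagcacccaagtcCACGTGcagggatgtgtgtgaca
Bhlhe41 (chr6:145865551-145865590, minus strand): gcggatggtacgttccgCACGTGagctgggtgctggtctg
Tef, first start (chr15:81802529-81802568, plus strand): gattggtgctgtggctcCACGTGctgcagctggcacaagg
Tef, second start (chr15:81811259-81811298, plus strand): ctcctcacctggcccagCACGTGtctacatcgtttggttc
Nr1d1 (chr11:98775383-98775422, minus strand): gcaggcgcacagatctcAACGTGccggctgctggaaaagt
Hlf (chr11:90390902-90390943, minus strand): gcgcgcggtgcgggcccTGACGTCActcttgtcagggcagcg
The 3 E-boxes of *Ciart* began 116, 58 and 44 bases before its transcription start, and the 2 D-boxes of *Per3* 205 and 158 bases before its start. A match is a run of letters and not a measured binding site, and these windows hold only the bases next to a start.

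All 10 genes were lower in each of the 5 IPF lungs than in each of the 5 sham lungs. Of the 20448 genes tested, 7.29% had groups that did not overlap (2.77% with IPF lower and 4.52% with IPF higher), and since the 10 genes were chosen from this contrast nothing is read from their count. Their log2 differences (IPF minus sham, on log2(FPKM + 0.1)) ran from -4.23 to -0.92 with a median of -1.77, while the median over all genes tested was 0.0016. The log2 difference was beyond 1 in size in 9 of the 10, all but *Ciart*. How many of all genes were beyond 1 by the log2 difference alone was not counted. Over the whole table, a log2 difference beyond 1 together with a limma adjusted p under 0.05 called 1.14% of all genes, 0.46% with IPF lower and 0.68% with IPF higher, and no such call is read for the 10 genes, since the same values chose them. Between 54 and 10080 reads per lung stood behind each value. In whole lung, fewer cells that hold a transcript and less of it per cell cannot be told apart. *Xist*, the RNA that silences an X chromosome in females, lay between 26.8 and 43.2 FPKM in the IPF lungs and below 0.08 in the sham lungs, and the Y-linked *Ddx3y* had no read in any IPF lung and 14.3 to 21.4 FPKM in the sham lungs. Sex, as these genes mark it, and the operation therefore cannot be told apart in any value given here.

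**Figure D1:**
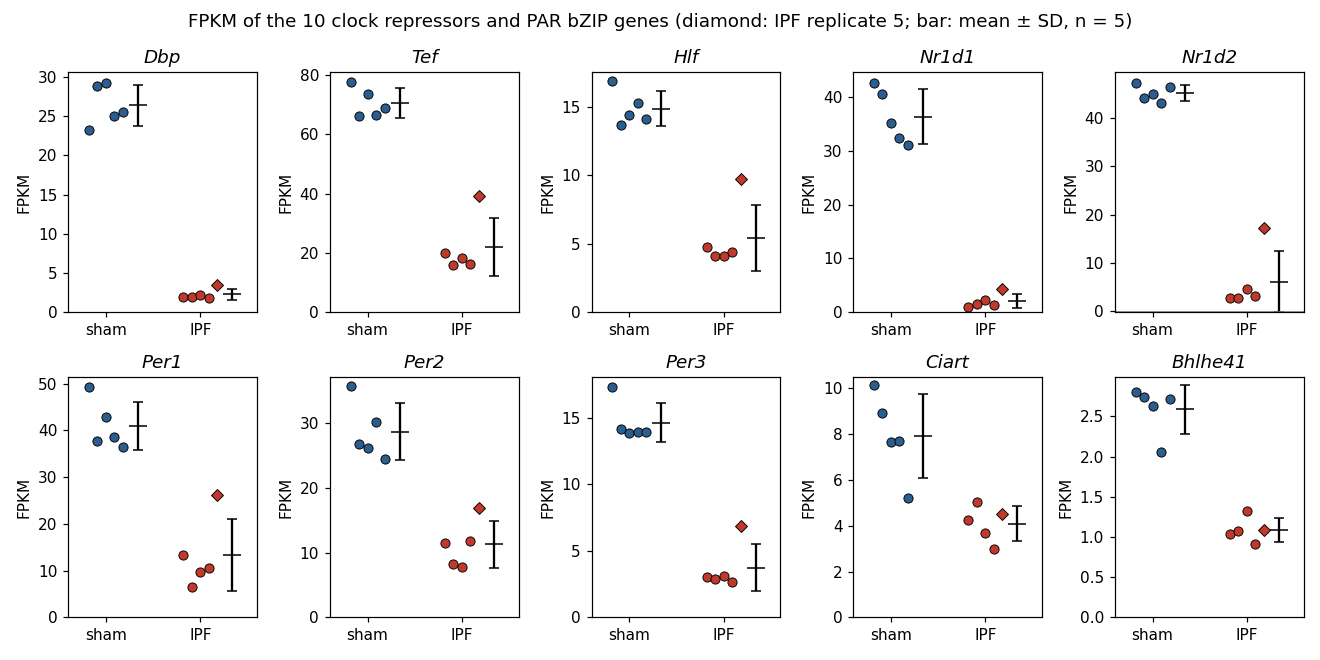
FPKM (vertical axes, linear, each panel with its own scale from 0) of the 10 genes in the 5 sham (blue) and 5 IPF (red) lungs, with bars for the mean and SD and a diamond for IPF replicate 5. In all 10 panels the IPF points lie below the sham points, and in 8 of them the diamond is the highest IPF point.

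The PAR bZIP factors bind D-boxes as homo- or heterodimers and activate genes of metabolism and detoxification. *Dbp*, named for the D-site of the albumin promoter (ENSMUSG00000059824, chromosome 7, 45705088 to 45710203), was at 23.2, 28.8, 29.3, 25.0 and 25.5 FPKM in sham replicates 1 to 5 and at 1.90, 1.98, 2.17, 1.74 and 3.49 FPKM in IPF replicates 1 to 5. The lowest sham lung lay 6.63-fold above the highest IPF lung, and the means differed 11.7-fold (log2 difference -3.53, standard error 0.16).
*Tef* (ENSMUSG00000022389, chromosome 15, 81802421 to 81826863), the thyrotroph embryonic factor, had the highest level of the 10 genes in both groups. It was at 77.7, 66.1, 73.7, 66.4 and 68.7 FPKM in the sham lungs and at 19.8, 15.8, 18.2, 16.3 and 39.1 FPKM in the IPF lungs. IPF replicate 5 stood 40.7% of the way from the mean of the other IPF lungs to the sham mean, and the mean was 3.23-fold lower in the IPF group (log2 difference -1.77, standard error 0.21).
*Hlf* (ENSMUSG00000003949, chromosome 11, 90336536 to 90390895), the hepatic leukemia factor, was also highest in IPF replicate 5 among the IPF lungs and in replicate 1 among the sham lungs. Its values were 16.8, 13.7, 14.4, 15.3 and 14.1 FPKM in the sham lungs and 4.77, 4.09, 4.08, 4.42 and 9.70 FPKM in the IPF lungs, a 2.74-fold lower mean (log2 difference -1.52, standard error 0.21).

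The 3 PAR bZIP transcripts did not shift by the same amount. *Dbp* held 23.6 ± 2.55% of their summed FPKM in the sham group and 7.92 ± 1.04% in the IPF group (SD, n = 5 per group), and the lowest sham share, 19.7%, was above the highest IPF share, 9.06%. *Tef* held 63.1 ± 1.90% and 73.7 ± 1.26%, and *Hlf* 13.3 ± 0.951% and 18.3 ± 1.09% (SD, n = 5 per group, sham first). The log2 ratio of *Dbp* to *Tef* was -1.42 ± 0.202 in the sham and -3.17 ± 0.213 in the IPF lungs (SD, n = 5 per group). By contrast, the log2 ratio of *Tef* to *Hlf* moved only from 2.24 ± 0.0871 to 1.99 ± 0.103 (SD, n = 5 per group), and its lowest sham value, 2.12, lay just below its highest IPF value, 2.13. The sum of the 3 transcripts was 112 ± 5.34 FPKM with sham surgery and 29.5 ± 12.9 FPKM with IPF (SD, n = 5 per group).

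*Nr1d1* and *Nr1d2* encode REV-ERBα and REV-ERBβ, heme-binding nuclear receptors that repress *Arntl* and *Npas2*. *Nr1d1* (ENSMUSG00000020889, chromosome 11, 98767932 to 98775333) was at 42.6, 40.6, 35.1, 32.3 and 31.0 FPKM in the sham lungs and at 1.03, 1.54, 2.23, 1.30 and 4.28 FPKM in the IPF lungs. This was the largest shift of the 10 (17.5-fold in the means, log2 difference -4.23, standard error 0.30), and even the highest IPF lung lay 7.25-fold under the lowest sham lung.
*Nr1d2* (ENSMUSG00000021775, chromosome 14, 18204054 to 18239127) was the steadiest of the 10 among the sham lungs and the most uneven among the IPF lungs. Sham values were 47.1, 44.0, 44.8, 43.1 and 46.3 FPKM, with a coefficient of variation of 3.62%, and IPF values were 2.79, 2.79, 4.58, 3.26 and 17.3 FPKM, with a coefficient of variation of 102%. IPF replicate 5 was 5.15-fold above the mean of the other 4 IPF lungs, and the mean of the group was 7.34-fold below the sham mean (log2 difference -3.26, standard error 0.42).
The share of *Nr1d1* in the summed FPKM of the pair was 44.5 ± 3.28% in the sham and 28.7 ± 6.02% in the IPF lungs (SD, n = 5 per group), with no overlap between 40.1% (lowest sham lung) and 35.5% (highest IPF lung). It was lowest, 19.8%, in IPF replicate 5, whose *Nr1d2* was the highest of its group. The sum of both was 81.4 ± 5.78 FPKM with sham surgery and 8.22 ± 7.55 FPKM with IPF (SD, n = 5 per group).

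**Figure D2:**
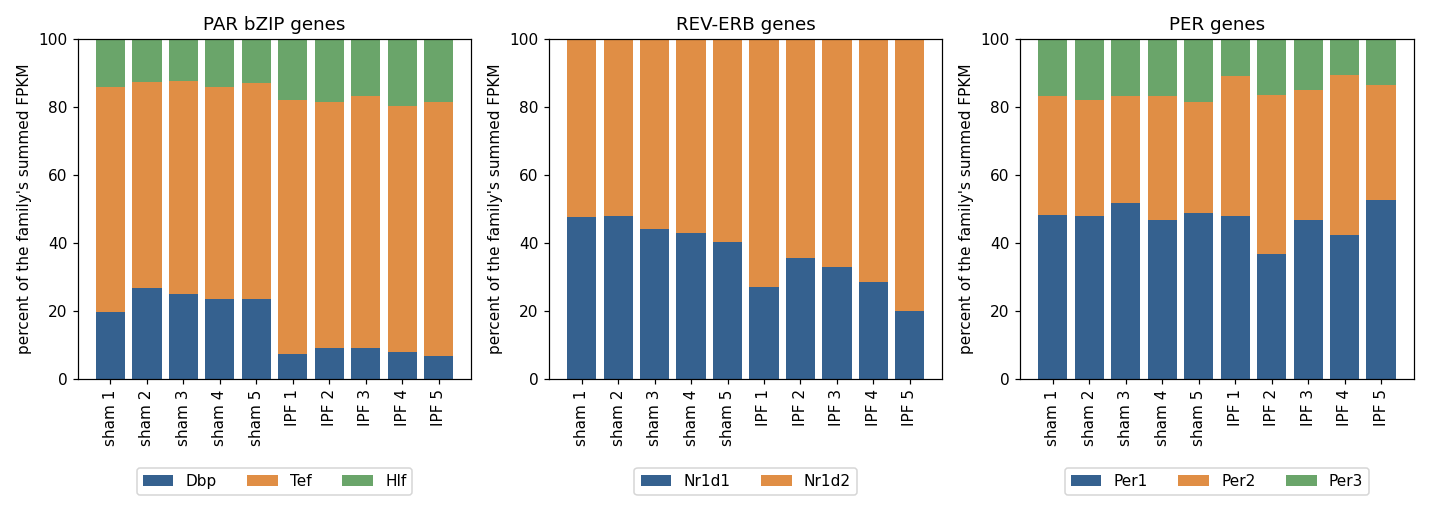
Share of each gene in the summed FPKM of its family (vertical axes, percent) in each of the 10 lungs, for the PAR bZIP, REV-ERB and PER genes. The *Dbp* share is 19.7% or more in the sham bars and 9.06% or less in the IPF bars, and the *Nr1d1* share is 40.1% or more against 35.5% or less.

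The PER proteins join the CRY proteins to inhibit CLOCK and BMAL1. *Per1* (ENSMUSG00000020893, chromosome 11, 69095217 to 69109960) was at 49.2, 37.7, 42.8, 38.6 and 36.4 FPKM in the sham lungs and at 13.4, 6.52, 9.63, 10.6 and 26.3 FPKM in the IPF lungs, a 3.08-fold lower mean (log2 difference -1.77, standard error 0.29). Its IPF lungs spread more than those of the other PER genes (coefficient of variation 57.8%).
*Per2* (ENSMUSG00000055866, chromosome 1, 91415982 to 91459324) was at 35.6, 26.7, 26.2, 30.1 and 24.5 FPKM in the sham lungs and at 11.5, 8.30, 7.84, 11.8 and 16.9 FPKM in the IPF lungs. The gap between the groups was narrow, since the lowest sham lung lay 1.45-fold above the highest IPF lung, and the means differed 2.54-fold (log2 difference -1.38, standard error 0.19).
*Per3* (ENSMUSG00000028957, chromosome 4, 151003652 to 151044665) shifted most of the PER genes. It was at 17.3, 14.1, 13.9, 13.9 and 14.0 FPKM in the sham lungs and at 3.07, 2.92, 3.10, 2.68 and 6.87 FPKM in the IPF lungs, a 3.93-fold lower mean (log2 difference -2.03, standard error 0.22).
Within the PER sum, *Per3* held 17.4 ± 0.850% in the sham and 13.4 ± 2.52% in the IPF group (SD, n = 5 per group), with all 5 IPF lungs below the lowest sham lung by a narrow margin (16.5% against 16.7%). The share of *Per1* was 48.6 ± 1.84% and 45.3 ± 5.99%, and that of *Per2* 33.9 ± 1.88% and 41.3 ± 5.68% (SD, n = 5 per group, sham first), and both overlapped between the groups.

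*Ciart*, also called CHRONO, encodes a repressor that binds BMAL1, and *Bhlhe41* encodes DEC2, which competes for E-boxes. They had the smallest shifts of the 10. *Ciart* (ENSMUSG00000038550, chromosome 3, 95878503 to 95882251) was at 10.1, 8.93, 7.63, 7.67 and 5.19 FPKM in the sham lungs and at 4.26, 5.01, 3.70, 2.99 and 4.50 FPKM in the IPF lungs. Its groups only just failed to meet, sham replicate 5 lying 1.04-fold above IPF replicate 2, and the means differed 1.93-fold (log2 difference -0.92, standard error 0.18).
*Bhlhe41* (ENSMUSG00000030256, chromosome 6, 145858243 to 145865558) had the lowest level of the 10 in both groups. It was at 2.80, 2.74, 2.62, 2.06 and 2.71 FPKM in the sham lungs and at 1.03, 1.08, 1.32, 0.915 and 1.09 FPKM in the IPF lungs, a 2.38-fold lower mean (log2 difference -1.18, standard error 0.12). With a pseudocount of 1 its log2 difference was -0.78, as its level is close to that pseudocount.

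Set against the median of the other 9 genes, *Nr1d1* (-2.46 on the log2 scale), *Dbp* (-1.76) and *Nr1d2* (-1.49) shifted further, and *Ciart* (0.85), *Bhlhe41* (0.60), *Per2* (0.39) and *Hlf* (0.25) less far. *Per3* stood at -0.26, and *Tef* and *Per1* were within 0.005 of the median of the rest. The range between the largest and the smallest shift was 3.31, and 2.90 with a pseudocount of 1. The order of levels also differed between the groups. In the sham lungs the mean FPKM ran from *Tef* through *Nr1d2*, *Per1*, *Nr1d1*, *Per2*, *Dbp*, *Hlf*, *Per3* and *Ciart* to *Bhlhe41*, and the ranges of neighbours were apart at 4 steps, between *Tef* and *Nr1d2*, *Dbp* and *Hlf*, *Per3* and *Ciart*, and *Ciart* and *Bhlhe41*. In the IPF lungs the order was *Tef*, *Per1*, *Per2*, *Nr1d2*, *Hlf*, *Ciart*, *Per3*, *Dbp*, *Nr1d1* and *Bhlhe41*, and the ranges of all neighbours overlapped. *Nr1d1* thus had rank 4 in the sham and rank 9 in the IPF lungs, and *Dbp* ranks 6 and 8.

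**Figure D3:**
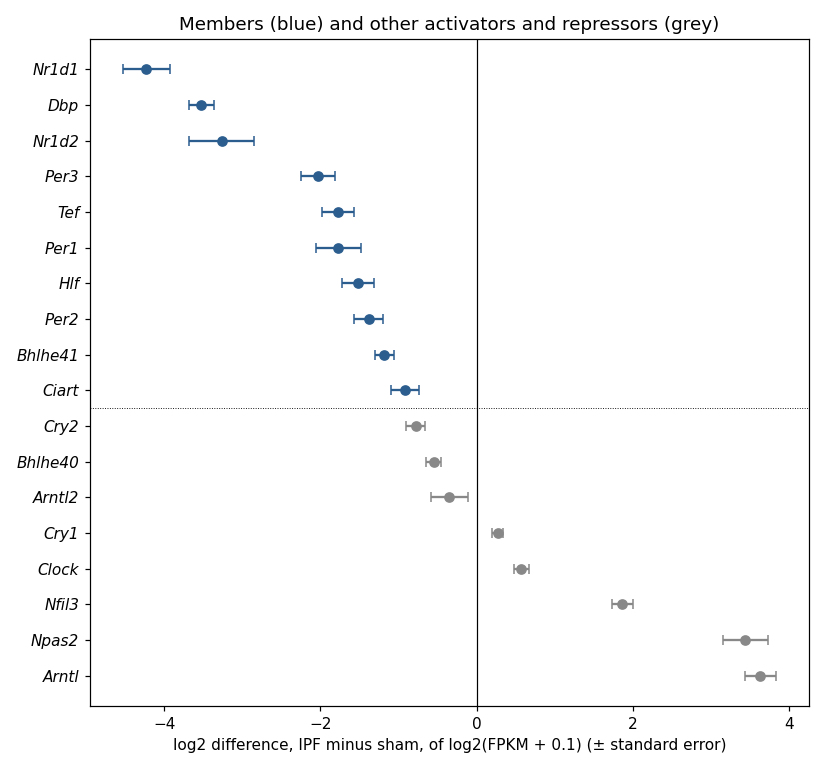
Log2 differences between IPF and sham (horizontal axis, log2(FPKM + 0.1), bars ± standard error) of the 10 genes (blue) and of 8 other activators and repressors of the clock (grey). The blue points run from -4.23 for *Nr1d1* to -0.92 for *Ciart*, and *Arntl* is at the other end of the axis at 3.63.

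One IPF lung stood apart from the other 4 in most of these genes. IPF replicate 5 was the highest of its group in 8 of the 10, all but *Ciart* and *Bhlhe41*. As a percentage of the sham mean, it held 65.3% of *Hlf*, 64.2% of *Per1*, 59.0% of *Per2*, 55.5% of *Tef*, 46.9% of *Per3* and 38.4% of *Nr1d2*, while IPF replicates 1 to 4 together lay between 6.19% (*Nr1d2*) and 41.1% (*Per2*) in these 6 genes. For *Dbp* and *Nr1d1* it remained far down, at 13.3% and 11.8% of the sham mean. For *Bhlhe41* it did not stand out at all, at 0.998 times the mean of the other 4 IPF lungs, and for *Ciart* it was at 1.13 times that mean. Without IPF replicate 5, the median log2 difference of the 10 genes was -2.03. The summed FPKM of 9 neutrophil genes was also highest in this lung, at 304 against 56 to 84.6 in the other IPF lungs and 16.1 to 87.0 in the sham lungs, and the part of this in the values above was not tested. *S100a9* (185 FPKM) and *S100a8* (78.9 FPKM) made up most of the neutrophil sum in this lung. Among the IPF lungs, each of these 9 genes was highest in replicate 5 except *Ngp* (2.64 FPKM) and *Camp* (0.969 FPKM).
Among the sham lungs, replicate 1 was the highest in 9 of the 10 genes, all but *Dbp*, where it was the lowest at 23.2 FPKM. This library also had the lowest mean Spearman correlation with the other 9 libraries across genes, 0.912, where the others had 0.929 to 0.932. Without it the median log2 difference was -1.72.

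**Figure D4:**
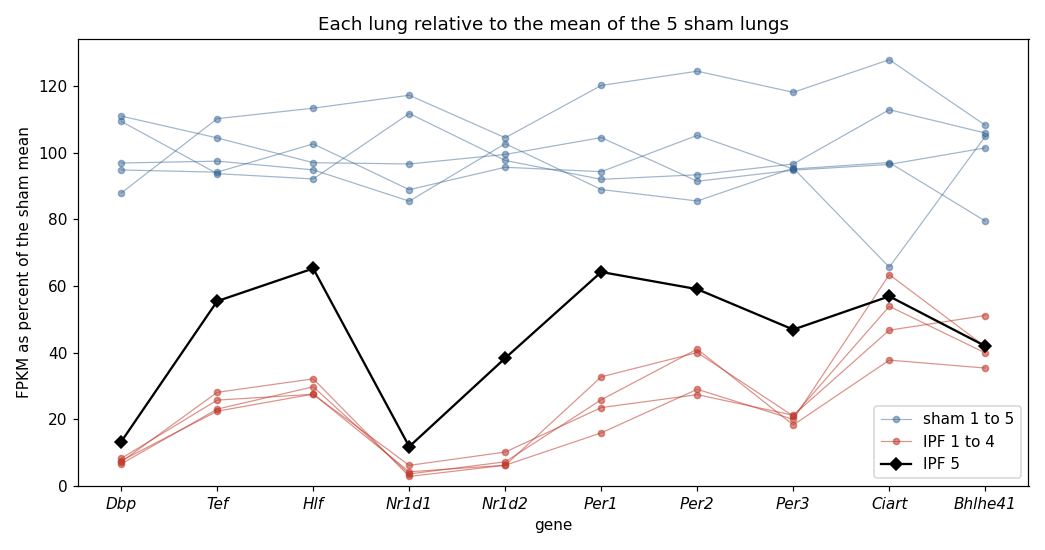
FPKM of each lung as a percentage of the mean of the 5 sham lungs (vertical axis) for the 10 genes, with lines joining the values of one lung. IPF replicate 5 (black) lies between the other IPF lungs and the sham lungs for *Tef*, *Hlf*, *Nr1d2* and the PER genes, and among the other IPF lungs for *Ciart* and *Bhlhe41*.

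Other genes of the clock, and genes of pathways that meet it, were taken from gene lists and tested with limma (Benjamini-Hochberg adjustment over all 20448 genes), and the amounts by which they rose or fell are on the log2 scale. Of 62 listed genes that were tested, 25 had an adjusted p under 0.05, 8 of them up and 17 down with IPF, which is 40.3%. The 62 include lists beyond the clock, namely 11 glucocorticoid-induced genes (8 of the 25), 11 immediate early genes and 5 C/EBP genes. *Tsc22d3* is on both the glucocorticoid and the clock output lists and was counted once among the 62. Over all genes tested it was 5.85%, of which 3.71% were higher and 2.14% lower with IPF. Of the 4 activators, 3 rose. *Arntl* was at 6.85, 6.83, 5.61, 6.59 and 3.31 FPKM in the IPF lungs and between 0.311 and 0.452 FPKM in the sham lungs (log2 fold change 3.63, limma adjusted p = 2.58e-06). *Npas2* was at 3.56, 3.84, 4.03, 3.61 and 1.29 FPKM in the IPF and between 0.137 and 0.268 FPKM in the sham lungs (3.44, limma adjusted p = 9.84e-05). IPF replicate 5, high among its group for most of the 10 genes, was the lowest IPF lung for both of these. *Clock* rose by 0.57 (limma adjusted p = 0.00684), and *Arntl2*, a paralog of *Arntl*, was at 0.358 ± 0.0611 FPKM with sham surgery and 0.268 ± 0.104 FPKM with IPF (SD, n = 5 per group; limma adjusted p = 0.455).

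The repressors outside the list of 10 did not share one direction. *Cry2* and *Bhlhe40*, which encodes DEC1, fell by 0.78 and by 0.55 (log2 scale, limma adjusted p = 0.00348 and 0.00825), with all IPF lungs below all sham lungs. Both shifts were smaller than that of *Ciart*, the smallest of the 10. The shift of *Cry2* lay near that of *Ciart* (standard errors 0.12 and 0.18, *Cry2* first). With a pseudocount of 1, the smallest shifts of the 10 were those of *Bhlhe41* (-0.78) and *Ciart* (-0.79), against -0.73 for *Cry2*. *Cry1* had a log2 difference of 0.27 (limma adjusted p = 0.0539, and 0.0195 without IPF replicate 3). *Nfil3*, which encodes the factor that competes with the PAR bZIP proteins for D-boxes, rose from 2.11 ± 0.406 to 7.88 ± 1.00 FPKM (SD, n = 5 per group), a difference of 1.87 on the log2 scale (limma adjusted p = 4.15e-05). The summed FPKM of *Dbp*, *Tef* and *Hlf* and the FPKM of their competitor thus moved in opposite directions.
The ROR receptors bind the same elements as the REV-ERB proteins and activate. *Rora* showed a log2 difference of -0.50 (limma adjusted p = 0.0733, 0.00911 without IPF replicate 5 and 0.0400 with the replicate number as a block). *Rorb*, with a mean of 0.0172 FPKM in the sham lungs, was below the filter.
Of 11 genes for the kinases, ubiquitin ligases and partners that set the stability of PER and CRY proteins, 0 had a limma adjusted p under 0.05. One of them had an unadjusted p under 0.05, and 1 passed with limma voom on the recovered reads. Their median log2 fold change was 0.0036.

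Of 10 genes listed as outputs of the clock, 4 fell and 1 rose. *Usp2*, a deubiquitinase gene, fell by 1.57 (limma adjusted p = 9.84e-05), and *Wee1*, a mitotic kinase gene, by 1.42 (limma adjusted p = 0.000319). *Tsc22d3* fell by 1.04 (limma adjusted p = 0.0247). *Cdkn1a*, which encodes the cell cycle inhibitor p21, rose by 0.53 (limma adjusted p = 0.0180).
Of 5 tested genes known as targets of the PAR bZIP factors in liver, 3 fell, and *Ces2a*, also listed, had no read in any lung. *Por*, which encodes the electron donor of the cytochromes P450, went from 75.3 ± 3.29 to 43.7 ± 8.93 FPKM (SD, n = 5 per group), a difference of -0.80 on the log2 scale (limma adjusted p = 0.00299). *Alas1*, the first enzyme of heme synthesis, fell by 0.66 (limma adjusted p = 0.0257) and *Cyp2b10* by 0.52 (limma adjusted p = 0.0489). *Pdxk*, the pyridoxal kinase gene, had a log2 difference of -0.51 with no overlap between the groups (limma adjusted p = 0.0665), and *Cyp2a5* one of -1.28 (limma adjusted p = 0.176). Of the IPF lungs, replicate 3 was the highest for *Por* (57.0 FPKM), *Alas1* (40.9) and *Cyp2a5* (2.78), but not for *Cyp2b10* or *Pdxk*. Its *Alas1* lay within the sham range (35.7 to 48.6 FPKM) and its *Cyp2a5* above the sham range (1.17 to 2.46 FPKM). This lung also had the highest summed FPKM of 8 ciliated airway genes, 83.9 against 20.6 to 27.2 in the other IPF lungs. The part of this in the values of these genes was not tested. Over 10 refits, each without 1 of the lungs, the adjusted p of *Alas1* was above 0.05 in 6, up to 0.0690 without IPF replicate 2, that of *Cyp2b10* in 9, up to 0.117 without IPF replicate 2, and that of *Tsc22d3* in 6, up to 0.0634 without sham replicate 3.

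Glucocorticoid hormone induces *Per1*, and 8 of 11 other genes on a list of glucocorticoid-induced genes fell, while 0 rose. *Zbtb16* was at 2.32, 1.11, 3.81, 1.47 and 24.7 FPKM in the IPF lungs and between 26.9 and 47.3 FPKM in the sham lungs (log2 fold change -3.25, limma adjusted p = 0.0162), and *Fkbp5* at 2.07, 1.61, 1.71, 2.08 and 9.11 FPKM against 13.7 to 19.3 FPKM (-2.60, limma adjusted p = 0.00373). The lung that was high here was again IPF replicate 5. *Pdk4* (-1.56), *Ddit4* (-1.14), *Tsc22d3* (-1.04), *Klf9* (-0.87), *Errfi1* (-0.83) and *Mt1* (-0.58) were the other genes that fell, with limma adjusted p up to 0.0369. In IPF replicate 5, however, *Tsc22d3* (156 FPKM, sham 148 to 182) and *Pdk4* (7.37, sham 7.17 to 10.6) lay within the sham range. So did *Klf9* (75.5 FPKM, sham 68.2 to 97.1), while *Ddit4*, *Errfi1* and *Mt1* stayed below all sham lungs in this lung. For each of *Klf9* and *Mt1*, 8 of the 10 fits that left out 1 sample gave an adjusted p above 0.05, up to 0.0658 and 0.0928, both without IPF replicate 4.
Of 11 immediate early genes, which share with *Per1* and *Per2* a response to cyclic AMP, *Junb* and *Ier2* rose, by 0.31 and 0.28 (limma adjusted p = 0.0479 and 0.0375). With 1 sample left out, the adjusted p was above 0.05 in 7 of 10 fits for *Junb*, up to 0.115 without IPF replicate 4, and in 8 of 10 for *Ier2*, up to 0.0864 without sham replicate 5, and with the replicate number as a block it was 0.0991 and 0.0854. Of the C/EBP genes, bZIP factors outside the PAR group, *Cebpd* alone of 5 passed, and fell by 0.88 (limma adjusted p = 0.0319, above 0.05 in 8 of 10 fits with 1 sample left out, up to 0.0807 without IPF replicate 2).

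The genes lying next to the 10 on the chromosomes were examined with the same test. The nearest tested gene on each side gave 20 neighbours, 406 to 165964 bases away, with a median log2 fold change of -0.10. Of these, 3 had a limma adjusted p under 0.05, all lower and none by more than 1 on the log2 scale. They were *Vamp2* beside *Per1* (-0.35, limma adjusted p = 0.00866), *Tob2* beside *Tef* (-0.47, 0.0389) and *Sspn* beside *Bhlhe41* (-0.25, 0.0404). *Vamp2* kept its adjusted p under 0.05 in all 10 fits that left out 1 sample, and *Tob2* and *Sspn* in 1 each, with values up to 0.0982 (without IPF replicate 4) and 0.0958 (without IPF replicate 1). *Car11*, which ends 406 bases before *Dbp*, was at 0.750 ± 0.113 FPKM with sham surgery and 0.768 ± 0.145 FPKM with IPF (SD, n = 5 per group; limma adjusted p = 0.960).
A further 6 genes overlapped one of the 10, and whether the authors' counting used strand is not given in the sources used here, so reads in the overlap may have gone to either gene. *Thra*, the thyroid hormone receptor alpha gene, shares 1075 bases with *Nr1d1* on the opposite strand and rose by 0.39 (limma adjusted p = 0.00814), opposite in direction to *Nr1d1*. *Sphk2* shares 737 bases with *Dbp*, also on the opposite strand, and rose by 0.26 (limma adjusted p = 0.0226, above 0.05 in 5 of the 10 fits that left out 1 sample, up to 0.0654 without IPF replicate 4). The antisense RNA *Gm17597*, which shares 193 bases with *Tef*, fell by 1.80 (limma adjusted p = 0.0178) and had 0 to 6 reads in the IPF and 8 to 17 in the sham lungs.
The antisense RNA *C920021L13Rik* covers all 3749 bases of the *Ciart* gene and was at 2.73 ± 0.282 FPKM with sham surgery and 2.72 ± 0.772 FPKM with IPF (SD, n = 5 per group; limma adjusted p = 0.926). With 97 to 173 reads it was near the read number of *Ciart* in the IPF lungs, 123 to 189. *Camta1*, whose annotation runs over *Per3* (log2 fold change -0.25, limma adjusted p = 0.185), and *Gm43909*, which overlaps *Bhlhe41* with at most 12 reads per lung (-0.84, limma adjusted p = 0.197), did not pass.

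**Figure D5:**
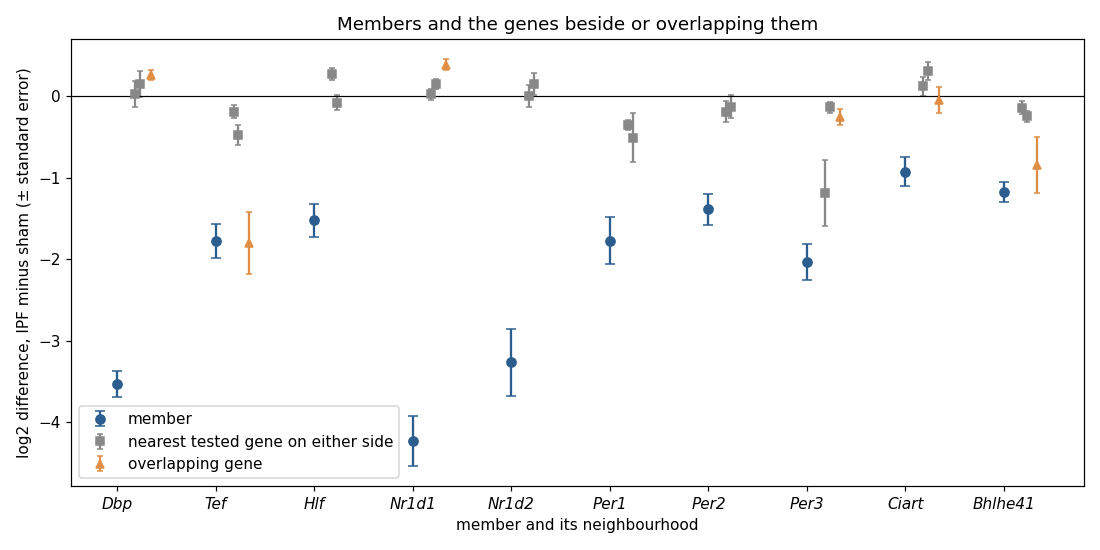
Log2 differences between IPF and sham (vertical axis, bars ± standard error) of each of the 10 genes (blue circles), of the nearest tested gene on either side (grey squares) and of genes that overlap it (orange triangles). *Gm17597*, which overlaps *Tef*, lies level with it at -1.80, and *Thra* beside *Nr1d1* lies above 0 at 0.39.

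Likeness was measured by Pearson's r over the 10 lungs between a gene and the mean of the 10 centred log2 profiles, among 13435 other genes with a mean of at least 1 FPKM. The lungs share a group, so the values describe mostly that division and carry no test. The 5 highest were *Tent5b* (0.986), *Fam107a* (0.985), *Gm45819* (0.985), *Gramd2* (0.981) and *Usp2* (0.979), and the 5 lowest *Dtx4* (-0.993), *Gm13889* (-0.992), *Npas2* (-0.991), *Bmp3* (-0.988) and *Clmp* (-0.987). *Dtx4*, for example, was at 11.9 to 12.98 FPKM in IPF replicates 1 to 4 and at 8.03 FPKM in IPF replicate 5, with a sham mean of 4.84 ± 0.333 FPKM (SD, n = 5).
With the group means removed, what is left is mainly the distance of IPF replicate 5 from the other IPF lungs. The highest values were then those of *Pknox2* (0.983), *Gpr155* (0.980), the glutamine synthetase gene *Glul* (0.976), *Zbtb16* (0.970) and *Epb41* (0.967), and the lowest those of *H19* (-0.975), *Wisp1* (-0.974), *Spon2* (-0.965), *Mgme1* (-0.965) and *Fam173b* (-0.957). *Glul* was at 181 FPKM in IPF replicate 5, between 70.2 and 84.6 FPKM in the other IPF lungs and at 233 ± 20.9 FPKM in the sham group (SD, n = 5), and *Spon2* at 2.80 FPKM in IPF replicate 5 against 21.1 to 35.1 FPKM in the other IPF lungs.

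The tissue label was checked with 10 genes of lung cells, among them *Sftpc*, *Ager* and *Pecam1*. All were read in every lung, and 0 of 10 had a limma adjusted p under 0.05, or an unadjusted p under 0.05, while 1 passed with limma voom. Genes of other cells moved with the groups in part. All 6 B cell genes were higher in the IPF group with a limma adjusted p under 0.05, their summed FPKM lying between 77.0 and 111 in the IPF and between 43.3 and 60.7 in the sham lungs. Of 7 T cell genes, 1 passed and was higher (*Cd4*, limma adjusted p = 0.0440; 4 at an unadjusted p under 0.05 and 0 with limma voom), with sums of 16.6 to 21.8 against 10.5 to 17.02 FPKM. Of 9 neutrophil genes, 0 passed (5 at an unadjusted p under 0.05 and 0 with limma voom), and likewise 0 of 8 genes of ciliated airway cells, 0 of 6 of heart muscle, 0 of 5 of fat and 0 of 6 of red blood cells, of which 0 had an unadjusted p under 0.05 or passed with limma voom. None of these listed genes was at 0 in all lungs. Their part in the values of the 10 clock genes was not tested.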

How the data were processed

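Whole-lung RNA of 5 IPF and 5 sham mice was analysed from a table of FPKM values, 1 per gene and sample. The authors used Fastp for trimming, HISAT2 for alignment and StringTie for quantification, and deposited FPKM values with each gene's length and position (from the file headers). The methods name GRCm39, and the submitters' processing notes name Bowtie 0.12.2 and the builds GRCm38, mm10 and hg38, the last a human build, with no role given. The positions are those of GRCm38, since the last gene of chromosome 1 ends at 195323493, beyond 195005801, the end of the last gene there in GRCm39. In all samples, FPKM times gene length came out as whole multiples of 1 step (tolerance 0.02), which gave 15483046 to 19026843 reads per sample and 22475 to 25486 genes above 0. Precision given by reads covers counting error only.

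Genes with a mean of at least 0.1 FPKM (20448) were fitted on log2(FPKM + 0.1) with limma 3.58.1 under R 4.3.3 (linear model, trended empirical Bayes, no covariate), with Benjamini-Hochberg adjustment. Fold changes on this scale understate those of low genes. DESeq2, which the authors used, takes counts and was not run on the recovered reads. Each sample is taken as 1 mouse, and p-values measure only the spread between these samples. The 10 genes, the lists and the tests were chosen with earlier results of these data known. Named genes are the 10, all listed activators, repressors and ROR genes, other listed genes and neighbours with an adjusted p under 0.05, overlapping genes, and the 5 most and 5 least alike. Some listed genes that this rule names are not reported here. *Pdxk*, *Cyp2a5*, *Ces2a* and *Car11* were named after their values were seen. Tables were made with pandas 2.3.3 and numpy 2.4.6 under Python 3.11.15. The fit was tested on simulated data. Alternatives were 2 other pseudocounts (1 and 0.01), 2 other filters, 2 scalings, a replicate block, no variance trend, limma voom and leaving out each sample; those for the neighbours, and those beyond the pseudocount for the relative shifts, were chosen after seeing the data. Promoter sequences are from RefSeq, GRCm38.p6.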

Additional observations from a re-analysis of the deposited data

Results flagged for a closer look

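The 10 genes and 11 other core clock genes were searched for a lung far from the other 4 of its group, by Dixon's test with a critical value of 0.71 for 5 samples. Of 42 groups of 5 lungs, 8 passed, 7 of them among the 10 genes. The groups come from the same 10 lungs and are not independent, so this count is not set against a chance rate. Of these 8, 6 were IPF replicate 5. It was the highest IPF lung for *Dbp* (3.49 FPKM, the others 1.74 to 2.17), *Tef* (39.1, the others 15.8 to 19.8), *Hlf* (9.70, the others 4.08 to 4.77), *Nr1d2* (17.3, the others 2.79 to 4.58) and *Per3* (6.87, the others 2.68 to 3.10), and the lowest for *Npas2* (1.29 FPKM, the others 3.56 to 4.03). Sham replicate 1 was the highest sham lung for *Per3* (17.3 FPKM, the others 13.9 to 14.1), and sham replicate 4 the lowest for *Bhlhe41* (2.06 FPKM, the others 2.62 to 2.80).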

How the results depend on the processing

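The median log2 difference of the 10 genes was lowest without IPF replicate 5, at -2.03, and highest without IPF replicate 2, at -1.62, over all 19 alternatives. With a pseudocount of 1, 74 genes were called over the whole table in place of 233 (38 higher and 36 lower), and the range of the shifts of the 10 genes was 2.90; *Dbp* moved to -3.09. With a filter at a mean of 1 FPKM, 154 genes were called. Leaving out each sample in turn gave 171 to 299 called genes, 17 to 27 of the other listed genes with an adjusted p under 0.05, a range of shifts from 3.09 to 3.56, and 1 to 3 of the 20 neighbours (1 without IPF replicate 2 or 4, or without sham replicate 1, 2, 3 or 4); without the filter or without the variance trend, 1 neighbour passed. The replicate numbers did not pair the samples (correlation of deviations -0.020 to 0.095). With the replicate number as a block 202 genes were called in all, and 21 of the other listed genes and 2 of the 20 neighbours passed. These 2 were *Vamp2* (limma adjusted p = 0.0315) and *Mmd* beside *Hlf* (limma adjusted p = 0.03715). *Tob2* and *Sspn* did not pass with the block (limma adjusted p = 0.0501 and 0.07685). The hour of collection is not given, and groups and sex cannot be told apart.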
